A study of Mus musculus with 4 samples.

Results

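The genes described here are 9 components of the interleukin-6 (IL-6) family signaling pathway in muscle satellite cells (MuSCs): the receptor genes Il6st, Il6ra, Osmr and Lifr, the Janus kinase genes Jak1 and Jak2, the transcription factor gene Stat3, and the feedback inhibitor genes Socs2 and Socs3. They were taken by gene name from a count file of 19353 genes, and all 9 were found. MuSCs came from Pax7-CreERT2:Rosa-YFP mice, in which tamoxifen lets a Cre recombinase made under the control of Pax7 switch on yellow fluorescent protein (YFP), and all mice had been injected with tamoxifen. The study describes its sham muscles as contralateral, so tubes of both groups may come from the same mice, but no label ties a sham tube to an overloaded one. Cells were collected 4 days after surgery from plantaris muscle that had been overloaded by cutting the distal tendons of the gastrocnemius and soleus (tenotomy), or from plantaris after a sham operation in which the skin was opened and the tendons were left intact. YFP marks the Pax7 lineage, so cells that had started to differentiate since labelling would be sorted too. Each group had 2 RNA-seq libraries, each from a tube of 100 sorted cells, and the sources used here do not say whether those tubes came from different mice, so p-values may measure only a technical spread. The age and sex of the mice are not given in the sources used here.

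IL-6, oncostatin M, leukemia inhibitory factor (LIF) and their relatives are secreted cytokines that signal through a shared receptor chain, gp130, encoded by Il6st. Each cytokine pairs gp130 with a partner, such as the IL-6 receptor (Il6ra), the oncostatin M receptor (Osmr) or the LIF receptor (Lifr). The paired chains bring together Janus kinases, which phosphorylate STAT3, and STAT3 then enters the nucleus and switches on genes that include its own inhibitor Socs3. In muscle, this pathway is known to bear on both the quiescence and the division of satellite cells, oncostatin M being linked to quiescence and IL-6 to division.

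The libraries were made by CEL-Seq2, in which each captured transcript is read near its poly(A) end and carries a unique molecular identifier (UMI), and the UMIs of a gene are its captured molecules, with no division by gene length needed. In total, 269683 and 260488 UMIs were counted for sham and 387955 and 483528 UMIs for overload. Levels are given below as CPM, UMI counts normalized to library size and scaled by the TMM method of edgeR, which sets a gene against the other transcripts of its library. Tests used the quasi-likelihood method of edgeR, p-values were adjusted by Benjamini-Hochberg over 7228 genes, and the threshold was that of the study, 0.1. The labelled cell type was checked against 10 satellite cell markers, all of which were detected in every library. Pax7 itself had 118 and 107 UMIs in sham against 108 and 137 after overload. In CPM it fell from 499 ± 20.4 to 279 ± 2.39 (SD, n = 2 per group), a log2 fold change of -0.84 (edgeR adjusted p = 6.4e-04). Other markers are named here after their values were seen. Calcr went from 37 and 57 to 15 and 15 UMIs, Cd34 from 32 and 38 to 20 and 15. Chodl went from 196 and 188 to 114 and 105 UMIs, whereas Itga7 and Cdh15 rose in CPM. Relative to the other transcripts 6 of the 10 markers fell and 2 rose, where 26.3% of all tested genes were called lower and 25.8% higher. In the most abundant decile, which held 7 of the 10, the share called lower was 68.2%.

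Relative to the other transcripts, 6 of the 8 tested genes fell in overloaded MuSCs, and 0 rose. The genes that fell were Il6st, Osmr, Jak1, Jak2, Stat3 and Socs3, whereas Lifr and Socs2 did not pass the threshold. Il6ra was too scarce to be tested. Across all tested genes, 52.1% were called in either direction, 26.3% lower and 25.8% higher, and their median log2 fold change was 0.051, against -0.78 for the 8 genes. The CPM values of the groups did not overlap for 6 of the 8 genes, which is close to the 72.9% found among all tested genes. A permutation test on 2 libraries against 2 has 0.333 as its smallest two-sided p, and the model therefore borrows a spread shared across genes.

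**Figure D1:**
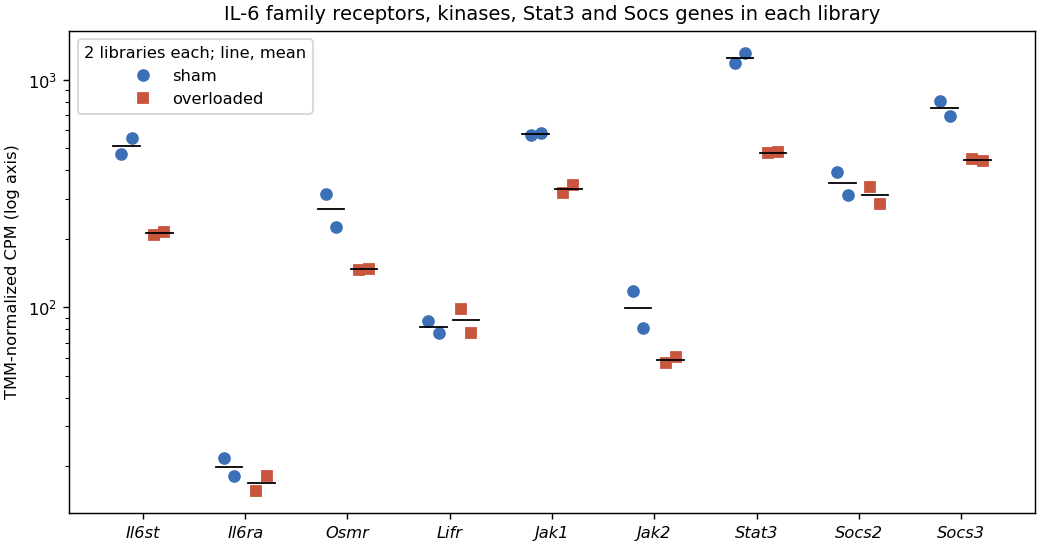
TMM-normalized CPM (log axis) of the 9 genes in each library, with circles for the 2 sham libraries, squares for the 2 overloaded libraries and a line at each mean. The groups are separate for Il6st, Osmr, Jak1, Jak2, Stat3 and Socs3, all lower after overload on this scale, and overlap for Il6ra, Lifr and Socs2.

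In sham MuSCs, the order of levels from the highest was Stat3, Socs3, Jak1, Il6st, Socs2, Osmr, Jak2, Lifr and Il6ra. Socs2 and Osmr, and likewise Jak2 and Lifr, overlapped between sham libraries and were not separated in that order. After overload, Socs2 came before Il6st and Lifr before Jak2, and the neighbours Jak1 and Socs2 overlapped. The shared receptor chain and the signal transducer were therefore both more abundant in sham than the partner receptors Osmr, Lifr and Il6ra. Il6st stood at 514 CPM there, against 270 for Osmr, 82.0 for Lifr and 19.9 for Il6ra.

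Il6st (GRCm38 chromosome 13, 112464070 to 112510086, plus strand) encodes gp130, without which none of these cytokines can signal. It had 108 and 123 UMIs in sham against 80 and 106 after overload. Both overloaded libraries lay below both sham libraries in CPM, although they held more UMIs in all. The level went from 514 ± 61.6 CPM in sham to 211 ± 4.70 CPM after overload (SD, n = 2 per group), 2.42-fold lower. Its log2 fold change was -1.28 (standard error 0.17, edgeR adjusted p = 2.2e-05), a change larger than the spread between replicates.

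Osmr and Lifr encode the partner chains that confer responses to oncostatin M and to LIF, and they lie near each other on chromosome 15, Osmr (6813577 to 6874969) on the minus strand and Lifr (7090614 to 7197489) on the plus strand. No protein-coding gene lies in the 216 kb between them. Osmr had 72 and 50 UMIs in sham against 56 and 73 after overload. Relative to the other transcripts it fell from 270 ± 61.4 to 147 ± 1.57 CPM (SD, n = 2 per group), or -0.88 on the log2 scale (standard error 0.21, edgeR adjusted p = 0.0025). The sham libraries differed more from each other than the overloaded libraries did, and without sham replicate 1 the log2 fold change was -0.66 (edgeR adjusted p = 0.063). Lifr had 20 and 17 UMIs in sham against 38 in each overloaded library. Its level was 82.0 ± 7.10 CPM in sham and 87.9 ± 15.5 CPM after overload (SD, n = 2 per group). The log2 fold change of 0.082 had a 95% confidence interval of -0.57 to 0.73 (edgeR adjusted p = 0.85), so that a change of Lifr in either direction within this interval was not detectable at this depth.

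Il6ra, on chromosome 3 from 89864059 to 89913196, encodes the membrane receptor that binds IL-6 itself. It had 5 and 4 UMIs in sham against 6 and 9 after overload, or 19.9 ± 2.58 and 16.9 ± 1.86 CPM (SD, n = 2 per group), and was left untested for low counts. Il6ra was thus detected in every library, at the lowest level of the 9 genes. It overlaps an annotated gene on the other strand, and the sources used here do not state whether reads were assigned by strand.

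Jak1 and Jak2 encode kinases that are held by the receptor chains, Jak1 being the main kinase of gp130. Jak1 lies on chromosome 4 from 101152367 to 101265282 and Jak2 on chromosome 19 from 29251828 to 29313080. Jak1 had 132 and 129 UMIs in sham against 122 and 170 after overload, and fell from 579 ± 6.93 to 331 ± 19.1 CPM (SD, n = 2 per group). Its log2 fold change was -0.80 (standard error 0.16, edgeR adjusted p = 7.6e-04), with close agreement between the libraries of each group. Jak1 also overlaps other annotated genes, Raver2 among them. Jak2 was much scarcer than Jak1, at 27 and 18 UMIs in sham against 22 and 30 after overload. It fell from 99.5 ± 25.4 to 59.0 ± 2.51 CPM (SD, n = 2 per group), a log2 fold change of -0.75 (standard error 0.32, edgeR adjusted p = 0.067). The call for Jak2 was the least secure of the 6, since without sham replicate 1 its log2 fold change was -0.49 (edgeR adjusted p = 0.39), and it was also lost without overloaded replicate 1 (adjusted p = 0.15), without overloaded replicate 2 (adjusted p = 0.15) and with DESeq2 (adjusted p = 0.35).

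Stat3 encodes the transcription factor at the end of the cascade and was the most abundant of the 9 genes in both groups. It had 272 and 289 UMIs in sham against 184 and 237 after overload, the only tested gene of the 9 besides Il6st whose UMI counts were lower in both overloaded libraries than in both sham libraries. In CPM it fell from 1247 ± 88.5 to 479 ± 1.07 (SD, n = 2 per group), 2.60-fold. Its log2 fold change, -1.38 with a standard error of 0.16 (edgeR adjusted p = 3.7e-06) and an interval of -1.71 to -1.05 at 95% confidence, stayed between -1.48 and -1.34 with each library left out. The minus strand of chromosome 11 carries Stat3 (100885098 to 100939540), and its last 72 bases are shared with the end of Stat5a, which runs toward it on the plus strand. Because reads come from transcript ends and the strand setting of the counting is not stated, the counts of Stat3 and Stat5a are uncertain to that extent.

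Socs3 and Socs2 encode suppressors of cytokine signaling. SOCS3 binds gp130 and blocks its Janus kinases, and SOCS2 is best known for restraining growth hormone signaling through STAT5. Socs3, on chromosome 11 from 117966079 to 117970047, had 185 and 153 UMIs in sham against 173 and 217 after overload. It fell relative to the other transcripts from 749 ± 79.3 to 445 ± 7.34 CPM (SD, n = 2 per group), a log2 fold change of -0.75 (standard error 0.16, edgeR adjusted p = 0.0012). Socs2, on chromosome 10 from 95385362 to 95417180, had 90 and 69 UMIs in sham against 130 and 140 after overload. Its level was 352 ± 56.0 CPM in sham and 311 ± 38.5 CPM after overload (SD, n = 2 per group), and the groups overlapped. The log2 fold change of Socs2 was -0.19, with a 95% confidence interval of -0.57 to 0.19 (edgeR adjusted p = 0.42), and its sign turned with library sizes alone, where it was 0.086.

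The promoter of Socs3 is shown because Socs3 is a classic target of STAT3, whose dimers bind palindromes of the form TTCNNNGAA, where N is any base. RefSeq promoters (GRCm38.p6) were at hand for 8 of the 9 genes, all but Socs2, and the 250 bases before each start site were searched on both strands, which for a palindrome are the same search. The Socs3 sequence, 5′ to 3′ on the minus strand of chr11:117969367-117969616 and ending at the base before the start site, is as follows, with the match in capitals. GENCODE places the start of the protein-coding transcript at 117969186 and the gene as a whole reaches 117970047 through a noncoding transcript, so that the window lies upstream of the coding transcript but inside the gene limits given above.
Socs3: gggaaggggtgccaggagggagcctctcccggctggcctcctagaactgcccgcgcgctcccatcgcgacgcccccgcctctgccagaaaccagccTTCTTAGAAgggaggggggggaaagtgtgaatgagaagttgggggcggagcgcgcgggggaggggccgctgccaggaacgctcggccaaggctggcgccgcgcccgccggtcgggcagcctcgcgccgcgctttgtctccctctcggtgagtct
The match, TTCTTAGAA, spans positions -154 to -146 from the RefSeq start site. Socs3 was the only gene with a match among the 8, a share of 12.5% against 8.13% of the 27025 genes in the promoter table. Among the known STAT3 targets listed below, 2 of the 17 with a promoter held one, Socs3 and Icam1. The match is a stretch of letters and was not examined as a bound site in these data.

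Fold changes in these libraries varied with how abundant a gene was, and 5 of the 8 tested genes, Il6st, Jak1, Stat3, Socs2 and Socs3, lay in the most abundant decile. In that decile the median log2 fold change was -0.70 and 68.2% of the genes were called lower. Jak1 at -0.80 and Socs3 at -0.75 were close to this median, Stat3 at -1.38 and Il6st at -1.28 were below it, and Socs2 at -0.19 was above it. Osmr lay in the next decile, where the median was -0.26 and 43.8% were called lower. Jak2 and Lifr lay in middle deciles, with a median of 0.20 and 16% called lower in that of Jak2, and a median of 0.13 and 18.1% called lower in that of Lifr.

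**Figure D2:**
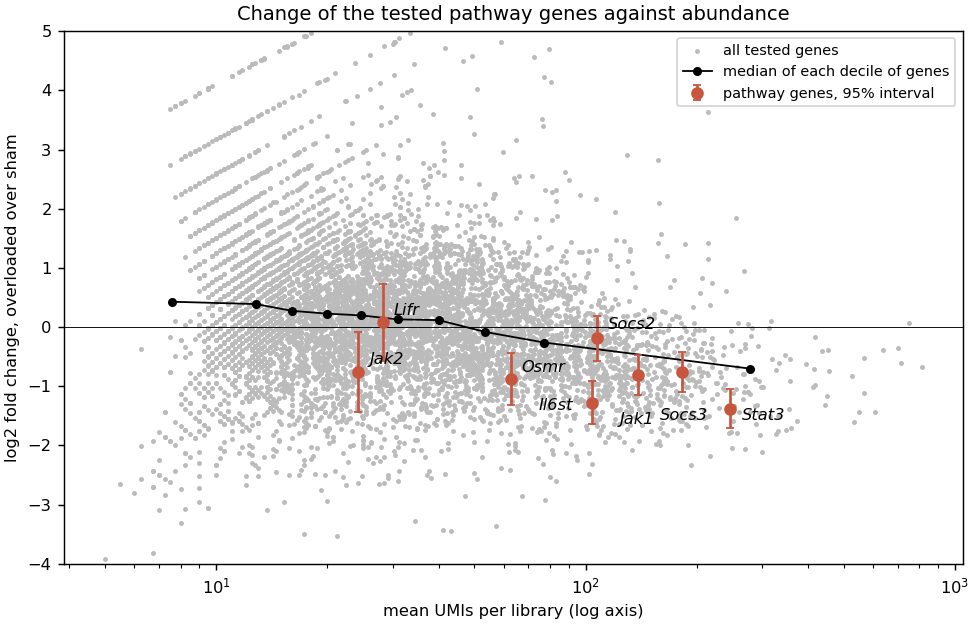
Log2 fold change of overloaded over sham against the mean UMIs per library (log axis) for all tested genes in grey, with the median of each decile in black and the 8 tested pathway genes in red with 95% confidence intervals. Stat3, Il6st, Osmr and Jak2 lie below the black line by more than their intervals, Jak1 and Socs3 lie nearer to it, and 64 genes beyond the vertical axis are not drawn.

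The order of the changes was therefore read on further scales, all from edgeR's quasi-likelihood test. With offsets that remove the dependence on abundance, the log2 fold change of Il6st was -0.72 (adjusted p = 0.0016), that of Osmr -0.62 (adjusted p = 0.025), that of Jak2 -0.83 (adjusted p = 0.050) and that of Stat3 -0.45 (adjusted p = 0.010). Under the same offsets Jak1 stood at -0.10 (adjusted p = 0.65), Socs3 at 0.069 (adjusted p = 0.75) and Lifr at 0.0089 (adjusted p = 0.99), while Socs2 rose by 0.37 (adjusted p = 0.095). That gives 4 genes lower and 1 higher, where 21.6% of all tested genes were called lower and 20.7% higher. Counted as UMIs per tube of 100 cells, with no scaling, Stat3 was the only one of the 8 that was lower past the threshold, at -0.41 on the log2 scale (adjusted p = 0.034). On that scale Lifr rose by 1.03 (adjusted p = 0.024) and Socs2 by 0.76 (adjusted p = 0.0067), and the other 5 did not pass. Among all tested genes, 4.58% were called lower and 62% higher per tube. In pooled cells, fewer cells with a transcript and less of it per cell cannot be told apart, nor can RNA per cell and capture efficiency on the per-tube scale.

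**Figure D3:**
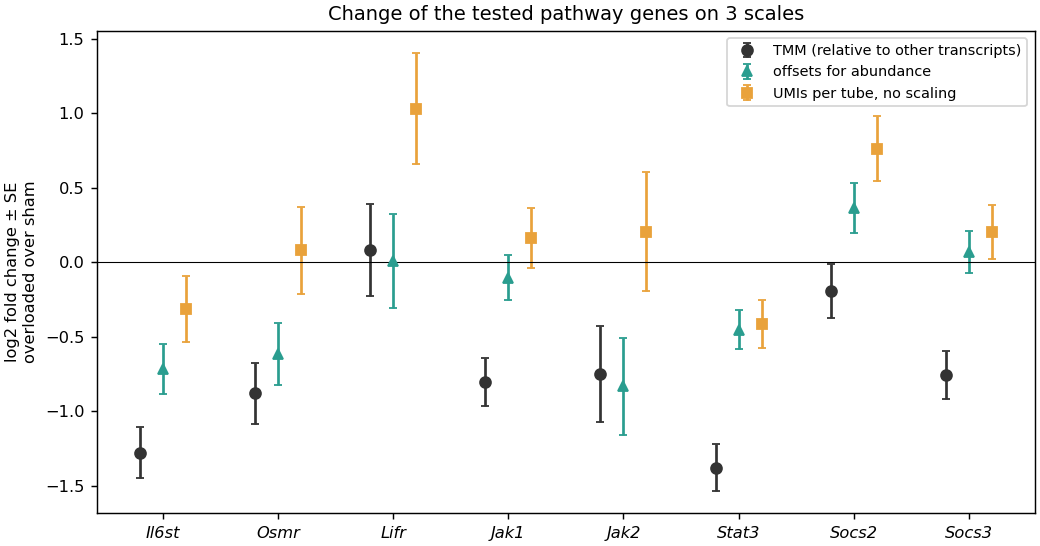
Log2 fold change of overloaded over sham for the 8 tested genes on 3 scales, with bars of 1 standard error: TMM, offsets for abundance, and UMIs per tube without scaling. Stat3 and Il6st are below 0 on each scale, Il6st not past the threshold per tube. Osmr, Jak1 and Jak2 are above 0 only per tube, Socs2 and Socs3 are below 0 only with TMM, and Lifr is not below 0 on any of them.

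Ratios between the genes within a library do not depend on a scaling that is the same for all its genes. The offsets for abundance differ between genes and were not applied to the ratios. They are given as a description without a test. The number of Osmr UMIs per Lifr UMI was 3.60 and 2.94 in the sham libraries and 1.47 and 1.92 in the overloaded libraries. Lifr per Il6st was 0.185 and 0.138 in sham and 0.475 and 0.358 after overload. The receptor transcripts were thus in a different proportion in each group, with more Lifr per Osmr and per Il6st after overload in both libraries. Osmr per Il6st was 0.667 and 0.407 in sham and 0.700 and 0.689 after overload, and the groups overlapped once the libraries were thinned to the same depth. Il6ra per Il6st was 0.0463 and 0.0325 in sham and 0.0750 and 0.0849 after overload, from few Il6ra UMIs. For the inhibitors, Socs3 per Socs2 was 2.06 and 2.22 in sham and 1.33 and 1.55 after overload. Socs3 per Stat3 was 0.680 and 0.529 in sham and 0.940 and 0.916 after overload, so that Socs3 was scarcer relative to Socs2 but more plentiful relative to Stat3. Jak2 per Jak1 was 0.205 and 0.140 in sham and 0.180 and 0.176 after overload, and these overlapped.

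**Figure D4:**
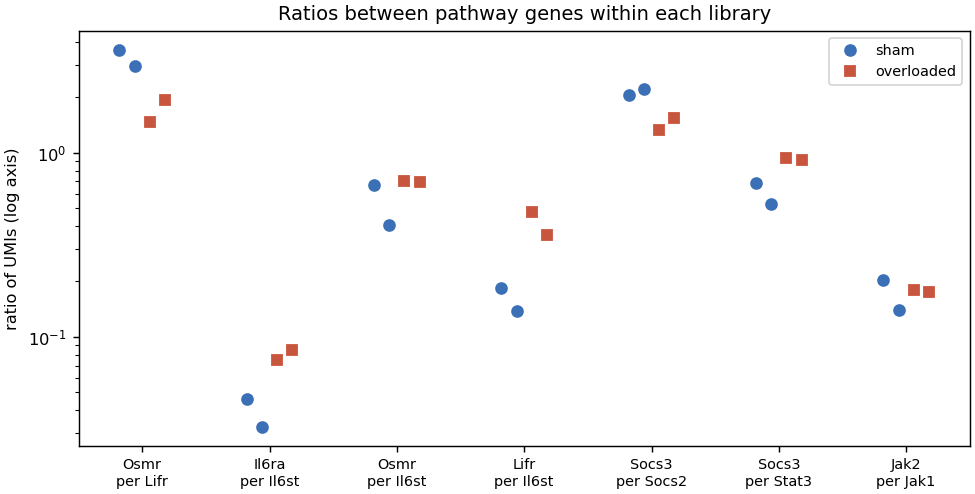
Ratio of the UMIs of one gene to those of another within each library (log axis), with circles for sham and squares for overloaded libraries. Osmr per Lifr and Socs3 per Socs2 are lower in both overloaded libraries, Lifr per Il6st, Il6ra per Il6st and Socs3 per Stat3 are higher, Osmr per Il6st is higher but overlaps after thinning, and Jak2 per Jak1 overlaps.

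Among the ligands of the family, Clcf1 and Lif fell, and Il6 did not pass the threshold. Clcf1 encodes a secreted cytokine that acts through gp130 and the LIF receptor. Clcf1 had 223 and 203 UMIs in sham against 125 and 169 after overload, a fall from 945 ± 36.1 to 334 ± 12.2 CPM (SD, n = 2 per group), or -1.5 on the log2 scale (edgeR adjusted p = 1.7e-06). Lif itself had 18 and 22 UMIs in sham against 10 and 8 after overload, a log2 change of -2.09 (edgeR adjusted p = 5.3e-04). Both were also lower past the threshold per tube, where their log2 fold changes were -0.53 for Clcf1 and -1.14 for Lif. Il6 had 17 and 14 UMIs in sham against 19 and 25 after overload, a log2 fold change of -0.46 that did not pass (edgeR adjusted p = 0.30). Transcripts of Osm were nearly absent from the sorted cells, with 0, 0, 0 and 2 UMIs in the 4 libraries. Clcf1 overlaps annotated genes on both strands, which adds to the uncertainty of its counts.

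Il11ra1, the receptor of IL-11, was the only further receptor with enough counts, at 48 and 56 UMIs in sham and 29 and 35 after overload. It fell by 1.66 on the log2 scale (edgeR adjusted p = 3.3e-05) and was also lower per tube (log2 fold change -0.70, edgeR adjusted p = 0.074), and its long annotation overlaps 6 other genes. In all, 3 of the 4 tested receptor genes fell, against 26.3% of all tested genes, and Il6st and Osmr among them were already counted above. Il6st lay in the most abundant decile, where 68.2% of genes were called lower, and Osmr in the next, where 43.8% were. Of the other Janus kinases, Tyk2 had 1 and 1 UMIs in sham against 5 and 9 after overload, and Jak3 was counted 0, 0, 0 and 2 times. Of the STAT genes besides Stat3, Stat5a and Stat2 fell, and Stat5b and Stat6 did not pass the threshold. Stat5a fell from 144 ± 5.35 to 40.3 ± 5.48 CPM (SD, n = 2 per group), with 34 and 31 UMIs against 17 and 18 and a log2 fold change of -1.84 (edgeR adjusted p = 1.6e-04). Stat5b, its close relative and its neighbour on chromosome 11, had 13 and 17 UMIs in sham against 27 and 30 after overload, a log2 fold change of -0.034 (edgeR adjusted p = 0.95). Stat2, an interferon-responsive factor, fell by 1.30 on the log2 scale (edgeR adjusted p = 0.0065), but did not pass without sham replicate 2 (log2 fold change -0.89, edgeR adjusted p = 0.13). Stat6 stood at -0.17 (edgeR adjusted p = 0.77).

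All 8 genes of the SOCS family were tested, of which 3 fell and 1 rose, not far from the 26.3% lower and 25.8% higher of all tested genes. Besides Socs3, these were Socs1, an inhibitor of Janus kinases, at 36 and 33 UMIs in sham and 24 and 42 after overload (log2 fold change -1.03, edgeR adjusted p = 0.0047), and Cish, which like Socs2 is a target of STAT5, at 12 and 10 against 4 and 10 UMIs (log2 fold change -1.59, edgeR adjusted p = 0.0086). The call for Cish was lost without sham replicate 1 and without overloaded replicate 1, where edgeR's adjusted p was 0.15 and 0.16, and with DESeq2 (adjusted p = 0.16). Socs5 rose from 4 and 8 to 21 and 26 UMIs (1.99-fold in normalized values, edgeR adjusted p = 0.080), but did not pass when sham replicate 1 (edgeR adjusted p = 0.49) or either overloaded library was left out (edgeR adjusted p = 0.20 each), nor with DESeq2 (adjusted p = 0.39). Of the 8 tested genes for other negative regulators, 3 fell, also near that share. Ptpn2, a phosphatase that removes phosphate from Janus kinases and STATs, fell with a log2 change of -1.47 (edgeR adjusted p = 3.4e-04). Pias1, which restrains STAT proteins in the nucleus, fell with -0.63 (edgeR adjusted p = 0.039), and Ptpn1, a further phosphatase, with -0.54 (edgeR adjusted p = 0.023). Without sham replicate 2, neither Pias1 nor Ptpn1 passed (edgeR adjusted p = 0.37 and 0.13), and Pias1 did not without overloaded replicate 1 (edgeR adjusted p = 0.13). Neither passed with DESeq2 (adjusted p = 0.28 for Pias1 and 0.24 for Ptpn1), and Ptpn1 stood at -0.17 under the offsets for abundance (edgeR adjusted p = 0.52).

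**Figure D5:**
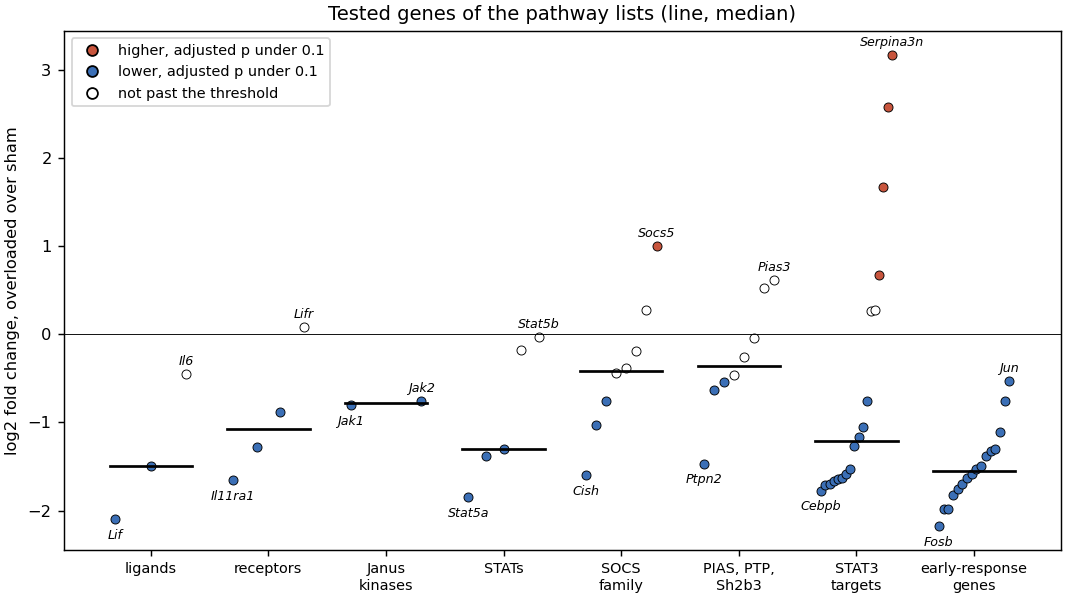
Log2 fold change of overloaded over sham in TMM-normalized values for tested genes of 8 lists of the pathway, in blue where lower past the threshold, red where higher and white otherwise, with a line at the median of the genes drawn and the lowest and highest of them named. Most points lie below 0 in the ligand, receptor, STAT3 target and early-response lists, and the 4 red STAT3 targets, with Serpina3n highest, lie above it.

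Genes known to be switched on by STAT3 in various cells moved in both directions. Of 18 tested targets, 12 fell and 4 rose, with a median log2 fold change of -1.21, where 26.3% of all tested genes were called lower and 25.8% higher. In the most abundant decile, which held 8 of the 18, the share called lower was 68.2%. The largest falls were those of Cebpb (-1.77), which encodes a transcription factor of the acute-phase response, Bcl3 (-1.71), a partner of NF-kB, Junb (-1.70), a subunit of AP-1, and Vegfa (-1.66), an angiogenic growth factor, with edgeR adjusted p-values of 5.3e-07, 2.2e-06, 6.7e-07 and 1.1e-05. Cebpb had 308 and 326 UMIs in sham against 174 and 185 after overload, and Bcl3 91 and 88 against 44 and 63 UMIs. The 4 genes that rose were Serpina3n, an acute-phase protease inhibitor, Bcl2l1, which protects cells from apoptosis, Timp1, an inhibitor of matrix proteases, and Ccnd1, a cyclin of the early cell cycle. Serpina3n had 4 and 3 UMIs in sham against 60 and 65 after overload (log2 fold change 3.17, edgeR adjusted p = 1.1e-05), and Bcl2l1 5 and 3 against 40 and 55 UMIs (log2 fold change 2.58, edgeR adjusted p = 1.3e-04). Timp1 rose by 1.67 (edgeR adjusted p = 2.9e-04) and Ccnd1 by 0.67 (edgeR adjusted p = 0.014), the latter not past the threshold without sham replicate 2 (edgeR adjusted p = 0.17) or with DESeq2 (adjusted p = 0.14). The targets were split on every scale examined, with 11 lower and 5 higher under the offsets for abundance (21.6% and 20.7% of all tested genes) and 8 lower and 6 higher per tube (4.58% and 62%).

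Some STAT3 targets are also early-response genes, which are known to rise when tissue is dissociated. All 16 early-response genes examined fell, against 26.3% of all tested genes and 68.2% of the most abundant decile, in which all 16 lay. They included Fosb (-2.18), Jund (-1.99), Atf3 (-1.98) and Nr4a1 (-1.82) on the log2 scale, with edgeR adjusted p-values of 1.2e-07, 3.0e-07, 6.6e-07 and 3.9e-07. The median of the 16 was -1.56, and their summed UMIs were 4646 and 4583 in sham and 2928 and 3653 after overload. Under the offsets 13 fell and 1 rose (21.6% and 20.7% of all tested genes), and per tube 11 fell and 1 rose (4.58% and 62%). Socs3, Junb and Fos stood on both lists, which is 15% of the target list and 18.8% of the early-response list. Of the 12 targets that fell, 9 were not among the 16 genes listed. That count depends on which genes were listed, and whether those 9 also respond to dissociation was not tested. The part of the early response in the changes of Stat3 and Socs3 was not tested.

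Growth hormone signaling, the usual source of Socs2, was followed within a short list of inputs and targets of STAT5. That list also held Prlr, Epor and Csf2rb, receptors of other ligands, which were too scarce to be tested. Ghr, the growth hormone receptor, named here after its values were seen, had 23 and 18 UMIs in sham against 43 and 47 after overload (log2 fold change 0.18, edgeR adjusted p = 0.64), with groups that overlapped in CPM like those of Socs2. Igf1, the growth factor that STAT5 induces, fell from 344 ± 6.57 to 161 ± 21.6 CPM (SD, n = 2 per group; log2 fold change -1.08, edgeR adjusted p = 2.0e-04). The 4 tested genes on the STAT5 list were Socs2 itself, Cish, Ghr and Igf1. Of these 2 fell, Cish and Igf1, and 0 rose, against 26.3% lower and 25.8% higher among all tested genes. The call for Cish was lost in several settings, as given above. Of 9 tested cell cycle genes 8 rose and 0 fell, where 26.3% of all tested genes were called lower and 25.8% higher.

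Other cell types that could have been sorted were traced by their markers. Cells for RNA-seq were sorted by YFP, a gate that cells outside the Pax7 lineage should not pass. For its muscle cell isolation the study also describes staining with antibodies to CD31, CD45 and Sca-1. Leukocyte transcripts, which came from 14 marker genes, summed to 2 and 8 UMIs in sham and to 89 and 240 UMIs after overload, so that overloaded replicate 2 held the most. Their most abundant marker was Lyz2, at 0 and 0 UMIs in sham and 17 and 38 after overload, and the defining marker Ptprc had 0, 1, 1 and 4. The 2 tested markers both rose (25.8% of all tested genes). These were Lyz2 (edgeR adjusted p = 1.2e-04) and Cd74, at 0, 0, 17 and 27 UMIs (edgeR adjusted p = 1.1e-04). Among those too scarce to be tested, C1qb had 0, 0, 9 and 35 UMIs and C1qc 0, 1, 7 and 35. Without overloaded replicate 2, the log2 fold changes of Stat3 and Il6st were -1.34 and -1.26, but overloaded replicate 1, which then stood alone, still held more leukocyte UMIs than either sham library. Endothelial markers summed to 27 and 20 UMIs in sham and 48 and 61 after overload, with Tek the most abundant over the 4 libraries (10, 12, 5 and 11) and Cldn5 at 0, 0, 1 and 1. Other endothelial markers, too scarce to be tested, had more UMIs after overload, among them Cdh5 at 3 and 1 UMIs against 14 and 11, Pecam1 at 4 and 2 against 11 and 7, and Egfl7 at 0 and 0 against 7 and 4. The 2 tested markers were Tek, which fell (log2 fold change -1.41, edgeR adjusted p = 0.015), and Flt1, which did not pass (log2 fold change -0.21, edgeR adjusted p = 0.79). In CPM the whole list summed to 118 and 90.6 in sham and 125 and 124 after overload. Mural markers summed to 177 and 154 against 463 and 679 UMIs, of which Acta2 made up most, and Myh11 was at 0, 0, 0 and 3. The pericyte marker Rgs5 rose from 13 and 4 to 38 and 86 UMIs (log2 fold change 1.88, edgeR adjusted p = 0.0016), and Cspg4 had 4 and 2 against 11 and 28. Of the 3 tested mural markers, Acta2 rose too (log2 fold change 0.95, edgeR adjusted p = 1.7e-04) and Tagln fell (log2 fold change -0.61, edgeR adjusted p = 0.045). Fibro-adipogenic markers summed to 1038 and 955 against 1071 and 1294 UMIs, led by Col3a1, and the defining gene Pdgfra had 0, 0, 2 and 0. Ly6a of the same list rose from 1 and 0 to 22 and 41 UMIs (log2 fold change 4.79, edgeR adjusted p = 1.1e-04), while 4 of its 5 tested genes fell relative to the other transcripts, and 4 of the 5 lay in the most abundant decile, where 68.2% of genes were called lower. Myofiber markers summed to 339 and 182 against 953 and 1109 UMIs, led by Acta1, with all 5 tested markers higher (25.8% of all tested genes), and glial markers to 1 and 2 against 8 and 4 UMIs. Cd74, C1qb, C1qc, Cdh5, Pecam1, Egfl7, Flt1, Rgs5, Cspg4, Tagln and Ly6a were named after their values were seen. In pooled cells, such transcripts from other cell types and the same transcripts made by cells of the Pax7 lineage cannot be told apart. The part of other cell types in the changes of the 9 genes was not tested.

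The genes whose pattern over the 4 libraries was closest to each of the abundant ones were found by the distance between log2 CPM values centred on their mean, among 4714 other genes with at least 20 UMIs per library on average. For Stat3 they were Sbno2 (distance 0.054) and Larp1b (0.068), and for Il6st mt-Ts1 (0.059) and Aff4 (0.076). Sbno2 had 210 and 215 UMIs in sham against 139 and 185 after overload. For Socs3 they were Crybg1 (0.029) and Phf23 (0.061), and for Socs2 Emsy (0.015) and Dusp11 (0.018). For Jak1 they were Snhg8 (0.029) and Ptprg (0.040), for Osmr Cux1 (0.088) and Twsg1 (0.10), for Jak2 Cux1 (0.088) and Mllt10 (0.089), and for Lifr Larp4b (0.036) and Map4k5 (0.047).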

How the data were processed

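The authors extracted barcodes and UMIs with UMI-tools (version 1.0.0), aligned reads to GRCm38 with HISAT2 (version 2.1.0), assigned them with featureCounts (version 1.6.4), and deposited UMI counts per gene and library, unscaled. Annotation release and strand setting are not given in the sources used here. Both groups were fitted together in edgeR (version 4.0.16, R version 4.3.3), with filterByExpr (minimum count 10, minimum total 15), TMM, glmQLFit and glmQLFTest. CPM were taken over the genes kept. A count of 3 was 13.6 CPM in the shallowest library and 6.08 CPM in the deepest, which covers counting error only. On simulated counts with these library sizes, recovery was 96.8% for 4-fold and 59.8% for 2-fold changes, and 12.1% of calls were false. Only 185 of the 7134 genes tested there were changed, with 1 spread for all genes and no dependence on abundance. The real libraries differ in these respects, so the rates may not hold for the calls above. Libraries of a group differed slightly beyond sampling noise (chi-square per degree of freedom 1.31 and 1.50). Locations are from GENCODE M21, in which all 19353 identifiers matched.

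The genes and lists were chosen with earlier results of these data known. Named were the 9 genes, listed pathway genes, up to 4 risers and 4 fallers of each target, early-response and cell cycle list, and the 2 nearest genes by pattern. Alternatives used DESeq2 (version 1.42.0) and limma-voom (version 3.58.1) among 17 settings. Some listed genes are not reported here.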

Additional observations from a re-analysis of the deposited data

How the results depend on the processing

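Of the 136 comparisons of a tested pathway gene with an alternative, 114 kept direction and side of the threshold. In the rest, 16 lost the call, 3 gained one and 10 turned sign, of which 5 are also among the losses and 2 among the gains. DESeq2 called 762 genes higher and 1049 lower, against 1868 and 1898, and UMIs per tube 4481 higher and 331 lower. Per tube, 2 of the 9 genes were higher and 1 lower, and under offsets for abundance 1 was higher. The share of higher genes among calls was 49.6%, 66.6% with library sizes alone and 93.1% per tube, and the median log2 fold change of all genes was 0.33 and 1.01 under these, against 0.051. Per tube the log2 fold changes that turned were 0.50 for Il6, 0.16 for Jak1, 0.21 for Jak2, 0.080 for Osmr, 0.34 for Pias1, 0.42 for Ptpn1, 0.76 for Socs2, 0.21 for Socs3, 0.92 for Stat5b and 0.79 for Stat6. With library sizes alone these were 0.086 for Socs2, 0.24 for Stat5b and 0.10 for Stat6, and under the offsets 0.37 for Socs2 and 0.069 for Socs3. Stat5b was also at 0.046 with no filter, 0.059 with upper-quartile factors and 0.23 in thinned counts, where Stat6 was at 0.0043. With each library left out, Lifr ranged from -0.071 to 0.31, Stat5b from -0.28 to 0.16 and Stat6 from -0.65 to 0.16, and 5 or 6 of the 9 genes were lower. No source states that libraries with the same replicate number share a mouse, and deviations of same-numbered libraries were uncorrelated (r = -0.035). With the replicate block, 1806 genes were higher and 1864 lower, and no call among the 8 tested genes changed. The cause of these shifts was not tested. At 4 to 40 UMIs per library, as for Lifr, Jak2 and Socs5, depth limits what can be seen.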
